A study of Rattus norvegicus with 15 samples.

Results

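The 4 adult myosin heavy chain genes of skeletal muscle, Myh1 (type 2X), Myh2 (type 2A), Myh4 (type 2B) and Myh7 (slow, also called beta), were followed across 15 multifidus libraries from rats. They were chosen by gene symbol alone, are 4 of 37991 genes in the table, and all 4 were among the 17201 genes that passed the filter on low counts. Their identifiers in the table were 287408 for Myh1, 691644 for Myh2, 360543 for Myh4 and 29557 for Myh7. Myosin heavy chain is the motor of the thick filament, and the isoform a fibre makes sets how fast it shortens and how it is fuelled. Slow fibres carry Myh7, oxidative fast fibres carry Myh2, and the faster and more glycolytic fibres carry Myh1 and then Myh4, which is abundant in rodent trunk and limb muscle. Fibres can hold several isoforms at once, and changes of load, nerve supply or injury are known to move fibres along the series from slow to 2A, 2X and 2B, while regenerating fibres make the embryonic (Myh3) and neonatal (Myh8) chains.

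The study used male wild type Sprague Dawley rats, 12 weeks old, in a model of wasting of the paraspinal muscle after spinal surgery. The operation was a hemilaminectomy in which a left lumbar spinal nerve was also tied, so it included loss of nerve supply as well as muscle injury. The Control group (n = 2) was not operated on. The surgery group (n = 2) was operated on and given nothing afterwards. The pMT group (n = 4) was operated on and received mitochondria isolated from human plasma (pMT), 25 μg in 100 μL of SHE buffer at each of the injected sites and 50 μg per rat, into the left paraspinal muscle on day 14, with tissue taken on day 28. The VitD group (n = 3) was operated on and received cholecalciferol, 150 μg per site and 300 μg per rat, and the pMT/VitD group (n = 4) received both at those doses. Tissue of the Control and surgery groups was also taken on day 28. The days of injection and of tissue collection for the groups with vitamin D are not given in the sources used here. Comparisons that include those groups may therefore mix days of collection. No group injected with buffer alone was analysed here, so the act of injection and what was injected cannot be told apart. The labels do not say that libraries of a group came from separate rats, so p-values measure the spread between these samples, which may be technical. The transplanted material is human, while reads were aligned to the rat genome.

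Libraries held 52342134 to 73557878 counts on genes, and the 4 adult myosin heavy chains took 3.17% to 5.71% of them. Transcripts of the 13 mitochondrial genes took 10.7% to 22.6%. The muscle label was borne out by abundant transcripts of Acta1, Ckm, Des, Mb, Neb and Ryr1, whose summed level was 61280 to 119400 CPM (counts scaled to a common library size, corrected between libraries by the TMM method). Libraries of a group were not equally alike. The median over genes of the chi-square statistic between a pair, divided by the value that sampling noise alone gives, was 6.15 for the Control pair and 3.07 for the surgery pair. In the pMT group it was 7.48 to 18.2 among replicates 1 to 3 and 34.4 to 69.8 for pairs with replicate 4. In the pMT/VitD group the corresponding values were 5.26 to 15.7 and 25.1 to 37.3, again with replicate 4 apart, and in the VitD group replicate 1 stood 22.8 and 40 from the others, which were 6.23 apart. Deviations from the group mean, across the genes tested, correlated at 0.431 and 0.313 between pMT replicate 4 and pMT/VitD replicates 1 and 2, and at 0.288 and 0.36 between pMT/VitD replicate 4 and pMT replicates 2 and 3. Whether a label is wrong was not tested, and values of pMT/VitD against pMT rest on the labels as given. The rank correlation, across genes, of a library's deviation from the mean of all libraries with transcript length was -0.322 in pMT replicate 4, -0.394 and -0.388 in pMT/VitD replicates 1 and 2, and -0.165 to 0.453 in the other libraries. In bulk muscle, fewer fibres of a type and less RNA per fibre cannot be told apart.

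The genes for the fast chains sit side by side, and their upstream sequences are shown because neighbours with related upstream sequence, Myh1 and Myh4 above all, had different levels across the libraries. In the GRCr8 assembly the cluster on chromosome 10 runs Myh3, Myh2, Myh1, Myh4, Myh8 and Myh13, while Myh7 lies next to Myh6 on chromosome 15. The sequences below come from RefSeq in GRCr8, which is not the rn6 assembly to which the authors aligned, and all 4 members matched by identifier. They lie upstream of the annotated start of each gene on the plus strand, at chr10:52355489-52355738 for Myh2, chr10:52384662-52384809 for Myh1 and chr10:52421898-52422147 for Myh4. The window of Myh7 lies inside its annotated gene and is not printed, and for Myh1 only the part of the window outside the gene is printed. Capitals mark a run of 20 bases that the 3 sequences share.
Myh2 upstream: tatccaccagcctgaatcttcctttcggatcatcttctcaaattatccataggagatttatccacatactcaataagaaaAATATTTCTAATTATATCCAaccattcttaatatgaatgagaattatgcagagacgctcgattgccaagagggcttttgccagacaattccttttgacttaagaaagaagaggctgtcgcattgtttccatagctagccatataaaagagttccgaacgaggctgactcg
Myh1 upstream: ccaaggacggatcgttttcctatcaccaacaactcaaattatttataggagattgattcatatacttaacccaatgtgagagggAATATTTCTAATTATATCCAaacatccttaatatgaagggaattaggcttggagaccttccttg
Myh4 upstream: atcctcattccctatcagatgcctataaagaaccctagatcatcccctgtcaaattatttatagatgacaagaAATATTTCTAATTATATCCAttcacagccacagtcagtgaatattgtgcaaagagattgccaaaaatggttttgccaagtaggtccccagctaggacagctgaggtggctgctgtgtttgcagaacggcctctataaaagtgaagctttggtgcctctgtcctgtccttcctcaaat

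The shared run began at position -170 of Myh2, -166 of Myh1 and -177 of Myh4, counted from the annotated start site. It was found in 4 of 27457 windows of the 250 bases before a gene's start (0.0146%), with both strands searched here and for each motif, 1 of them being that of the antisense transcript LOC102555216, which starts within the Myh4 window. The letters TATAAAA were found in the windows of Myh1, Myh2 and Myh4 and in 5.36% of all windows, and they were not found in that of Myh7. The E-box letters CANNTG were found at 2 places for Myh4 and 3 for Myh7, at none for Myh1 or Myh2, and in 65.2% of all windows. The MEF2 consensus was found once each for Myh1 and Myh4, and in 3.07% of all windows, and a CArG box was found once for Myh4 and in 1.5% of all windows. In Myh1, Myh2 and Myh4 none of these matches overlapped another. In global alignments of the 250-base windows, gaps included, identity was 66.7% between Myh1 and Myh2, 53.0% between Myh1 and Myh4 and 51.8% between Myh2 and Myh4, and 41.2% to 42.3% between Myh7 and each of them. Matches describe the letters only, and none of them was tested against expression.

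Because the members are close paralogs and it is not stated how reads that align to several genes or to either strand were counted, reads may be split between Myh1, Myh2, Myh4 and Myh8, and between Myh7 and Myh6. LOC102555216, named after its values were seen, runs antisense to Myh1. It had 228 to 439 counts per library, 0.0148% to 0.0877% of the Myh1 count.

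Per transcript length, Myh4 and Myh1 were the leading pair in every library but VitD replicate 1. In TPM (the authors' unit, scaled by transcript length and to the same total in every library) Myh4 ranged from 1228.6 to 7703.5, Myh1 from 1198.3 to 5166.2, Myh2 from 320.98 to 1358.4 and Myh7 from 318.63 to 628.05. By TPM, Myh4 ranked between the 22nd and the 90th most abundant gene of a library and Myh7 between the 182nd and the 295th. The order Myh4, Myh1, Myh2, Myh7 held in 7 libraries, both Control libraries among them. Myh1 led Myh4 in both surgery libraries, in replicate 3 of the pMT/VitD group and in replicate 2 of the VitD group. Myh7 passed Myh2 in replicate 4 of the pMT group and in replicates 1 and 2 of the pMT/VitD group. In replicate 1 of the VitD group Myh2 passed Myh4, which was there at its lowest level.

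**Figure D1:**
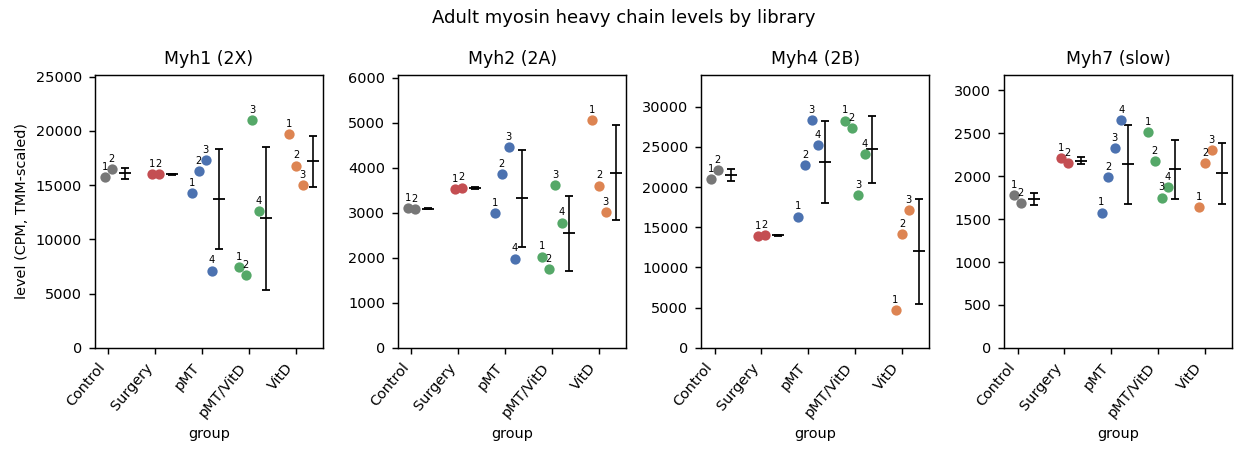
Level of each adult myosin heavy chain (y axis, TMM-scaled CPM) in every library (points) of the 5 groups (x axis), with the mean and SD of each group. Myh4 sits at 13946 and 14030 CPM in the surgery group against 20970 and 22076 in Control, and the lowest point of all is VitD replicate 1 at 4678.3.

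Myh4, the fastest of the chains, varied most between libraries, by 6.06-fold from lowest to highest. The values were 3.12-fold for Myh1, 2.88-fold for Myh2 and 1.68-fold for Myh7. That rank of Myh4 rests on VitD replicate 1, at 4678.3 CPM. Without this library Myh4 ran from 13946 to 28328 CPM, in proportion a narrower range than 6718.9 to 20987 CPM for Myh1. The level of Myh4 was 20970 and 22076 CPM in Control and 13946 and 14030 CPM in the surgery group, without overlap. In the pMT group it was 16332, 22774, 28328 and 25230 CPM in replicates 1 to 4, all above both surgery libraries. In the pMT/VitD group it was 28250, 27373, 19032 and 24110 CPM, also all above the surgery group. The VitD group spread from 4678.3 to 14164 and 17160 CPM, on both sides of the surgery group. The order of the group means was pMT/VitD, pMT, Control, surgery and VitD, and of the neighbours in that order only Control and surgery did not overlap. How many of all genes likewise did not overlap between these close pairs was not counted, here or for Myh2 and Myh7 below. Nor was it counted how many likewise had every library given pMT above both surgery libraries.

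In tests of single groups, none of the 4 members passed at an adjusted p (edgeR's quasi-likelihood test, Benjamini-Hochberg over all genes tested) of 0.05. For surgery against Control, where 1.55% of all genes were called, the log2 fold change of Myh4 was -0.62 (SE 0.43, adjusted p = 0.499). For pMT against surgery, where 1.94% of all genes were called, it was 0.73 (SE 0.38, adjusted p = 0.426). For pMT/VitD against surgery, where 7.44% were called, it was 0.82 (SE 0.39, adjusted p = 0.205), and it passed without VitD replicate 1, which left it at 0.82 (adjusted p = 0.0296). The 7.44% belongs to the fit of all libraries, and leaving out 1 library gave 122 to 2199 genes called. The share called without VitD replicate 1 is not given here. These comparisons share the surgery libraries. The fits pool the spread over all groups, and with the 2 groups of surgery against Control alone, which are tight pairs, Myh4 was called at -0.59, Myh2 at 0.22 and Myh7 at 0.35. The 1.55% above belongs to the fit of all libraries, and over all settings 8 to 5289 genes were called for surgery against Control. The share of all genes called in the fit of those 2 groups is not given here, so these calls have no background beside them. Over all 5 groups at once, where 11.8% of genes were called, the adjusted p of Myh4 was 0.165 and those of the other members were 0.561 to 0.824.

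The design also allows the 8 libraries given pMT, with or without vitamin D, to be set against the 5 operated libraries without it. Myh4 was the member called there, in a comparison where 23.3% of all genes were called. Its level was 23929 ± 4386 CPM (SD, n = 8, 16332 to 28328) with pMT and 12796 ± 4734 CPM (SD, n = 5, 4678.3 to 17160) without. The ranges overlapped, since pMT replicate 1 lay below VitD replicate 3. The log2 fold change, taken as the difference of the means over groups, was 0.88 (SE 0.26, 95% confidence interval 0.33 to 1.43, edgeR adjusted p = 0.0235). Without VitD replicate 1 the value fell to 0.69 (adjusted p = 0.00802), and without replicate 4 of both pMT groups it was 0.86 (adjusted p = 0.03365). The call was lost without either surgery library, at 0.88 without replicate 1 (adjusted p = 0.0966) and 0.89 without replicate 2 (adjusted p = 0.0982). Scaling by library size alone, with no correction for composition, moved the median of all genes to -0.23 and the calls from 1723 higher and 2281 lower to 459 and 5015, and Myh4 was then at 0.65 (adjusted p = 0.0475). With each library's length trend removed it was at 0.97 (adjusted p = 0.00992).

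For Myh1, the 2X chain, and Myh2, the 2A chain, no comparison passed edgeR's test in the fit of all libraries. Myh1 was 15703 and 16437 CPM in Control and 15981 and 16023 CPM in the surgery group, so those groups overlapped. In the pMT group it was 14256, 16293, 17284 and 7117.3 CPM, and in the pMT/VitD group 7463.7, 6718.9, 20987 and 12567 CPM. The VitD group had 19722, 16801 and 15024 CPM. Both groups given pMT thus held libraries at or above the surgery level and libraries at 7463.7 CPM or lower. For pMT-treated against operated without pMT, the log2 fold change of Myh1 was -0.37 (SE 0.27, adjusted p = 0.336).

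Myh2 was 3106.9 and 3081 CPM in Control and 3532.9 and 3558.1 CPM in the surgery group, without overlap, but the test gave a log2 fold change of 0.20 (SE 0.37, adjusted p = 0.829). It was 2991.7, 3855.4, 4462.5 and 1981.4 CPM in the pMT group and 2026.9, 1755.8, 3613.4 and 2782.7 CPM in the pMT/VitD group. The VitD group had 5060.2, 3602.4 and 3015.3 CPM. The highest Myh2 level of the series was therefore in the library with the lowest Myh4. For pMT-treated against operated without pMT, the log2 fold change of Myh2 was -0.35 (SE 0.21, adjusted p = 0.247). limma-voom with sample quality weights called both, Myh1 at -0.50 and Myh2 at -0.34, but it called 4321 genes higher and 4484 lower there, of 17201 tested.

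Myh7, the slow chain, moved least. It was 1783.1 and 1688 CPM in Control and 2205.9 and 2149.6 CPM in the surgery group, without overlap, at a log2 fold change of 0.33 (SE 0.25, adjusted p = 0.536). It was 1575.9, 1989.2, 2331 and 2653.1 CPM in the pMT group and 2513.3, 2174.9, 1751.5 and 1871.4 CPM in the pMT/VitD group. The VitD group had 1635.4, 2154.9 and 2303.1 CPM. All neighbours in the order of group means overlapped. For pMT-treated against operated without pMT its log2 fold change was 0.00 (SE 0.14), with a 95% confidence interval of -0.30 to 0.31, and its sign changed with the scaling of the libraries.

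**Figure D2:**
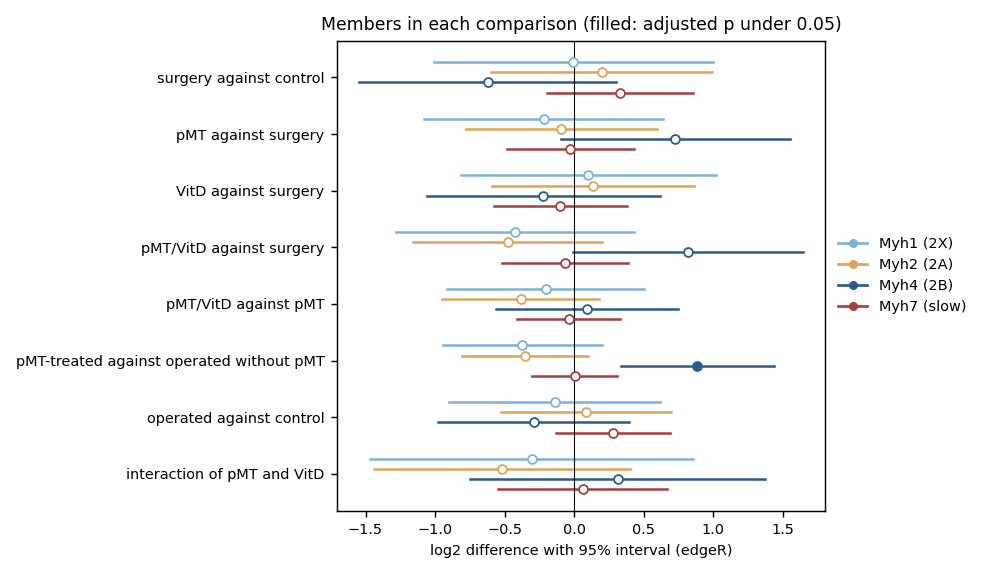
Log2 fold change (x axis) of each member in each comparison, with 95% confidence intervals from the edgeR fit of all 15 libraries; filled points passed at an adjusted p of 0.05. Of all the intervals drawn, that of Myh4 for pMT-treated against operated without pMT (0.33 to 1.43) is the one called.

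Vitamin D alone gave no call in any member against the surgery group, where 0% of genes were called. The log2 fold changes were 0.10 for Myh1, 0.13 for Myh2, -0.22 for Myh4 and -0.10 for Myh7. Without VitD replicate 1 the value of Myh4 turned to 0.16. edgeR called 0 genes with 139 at an unadjusted p under 0.05, while DESeq2 called 0 and limma-voom 419. Adding vitamin D to pMT was not called by edgeR in any member either, with log2 fold changes of -0.20, -0.38, 0.09 and -0.04 in the same order (pMT/VitD against pMT, 0% of genes called). edgeR called 0 genes there, with 1737 at an unadjusted p under 0.05, against 89 by DESeq2 and 6595 by limma-voom, which called Myh1 at -0.89 and Myh2 at -0.81. Without replicate 4 of both groups edgeR called 3136 genes and none of the members. The interaction of pMT and vitamin D was not called by edgeR in any member (adjusted p 0.907 to 0.986). edgeR called 0 genes there (0%), with 888 at an unadjusted p under 0.05, against 0 by DESeq2 and 5393 by limma-voom, which called Myh1 at -0.95 and Myh2 at -0.82. In all operated groups against Control, where 0.0233% of genes were called, the members had log2 fold changes of -0.29 to 0.28 and none was called.

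Shares of the 4-member sum do not depend on how libraries are scaled to each other, so the make-up of the adult heavy chain pool was also taken as the percent of summed TPM. In Control, Myh4 made up 50.41% and 50.99% of the pool and Myh1 37.66% and 37.87%. In the surgery group Myh4 was at 39.08% and 39.21% and Myh1 at 44.67% in both libraries. Myh2 was 7.64% and 7.28% in Control and 10.12% and 10.17% in the surgery group, and Myh7 4.30% and 3.86% against 6.13% and 5.95%. None of the 4 shares overlapped between Control and surgery, but with 2 libraries a group the exact permutation test cannot give a p below 0.333, which is the value it gave for each.

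**Figure D3:**
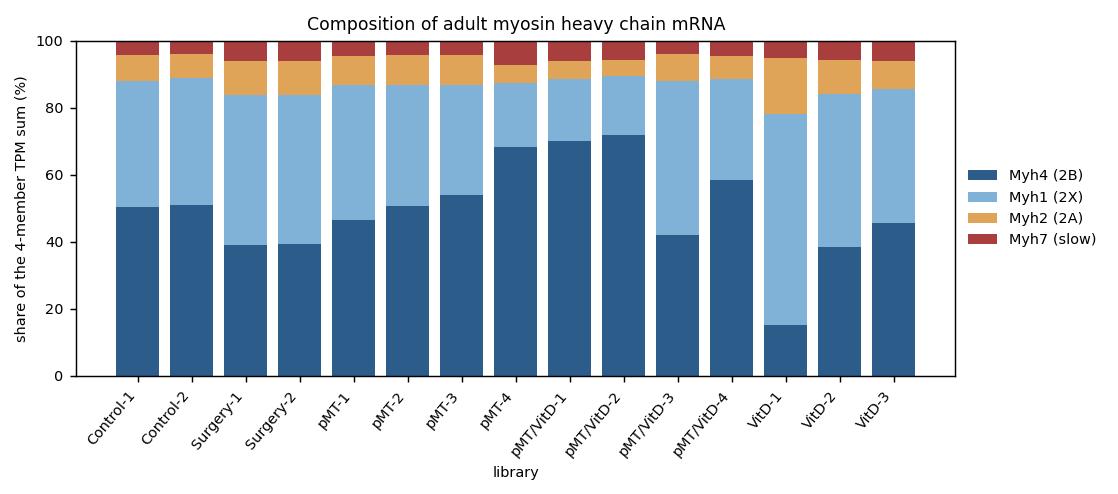
Share of each member in the summed TPM of Myh1, Myh2, Myh4 and Myh7 (y axis, percent) as stacked bars, 1 bar per library, arranged by group. Myh4 fills 50.41% and 50.99% of the Control bars, 39.08% and 39.21% of the surgery bars and 15.02% of the bar of VitD replicate 1.

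In the pMT group the share of Myh4 was 46.43%, 50.68%, 54.02% and 68.22% in replicates 1 to 4. In the pMT/VitD group it was 70.17%, 71.99%, 41.92% and 58.31%. All 8 were above both surgery libraries, but the exact permutation test of each group against surgery cannot go below p = 0.133, which it gave. In the VitD group the share was 15.02%, 38.55% and 45.71%. The share of Myh1 was 17.63% where Myh4 was 71.99% and 46.12% where Myh4 was 41.92%, and since these chains make up most of the pool their shares are tied by the sum. In CPM both were higher in pMT replicates 2 and 3 than in replicate 1.

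With pMT against without it, the share of Myh4 was 57.7% ± 11.4 (SD, n = 8) against 35.5% ± 11.8 (SD, n = 5), 22.2 percentage points higher (two-sided exact permutation p = 0.00311, adjusted p = 0.087 over 28 tests of shares). The share of Myh2 was 7.07% ± 1.74 against 11.0% ± 3.23 (exact permutation p = 0.00622, adjusted p = 0.087) and that of Myh1 30.15% ± 10.8 against 47.6% ± 8.98 (exact permutation p = 0.014, adjusted p = 0.131). The share of Myh7 was 5.06% ± 1.13 against 5.85% ± 0.387 (exact permutation p = 0.174, adjusted p = 0.443). None of the 4 shares held after adjustment. Without VitD replicate 1, which had the lowest Myh4 share and the highest shares of Myh1 and Myh2, the differences were 17.08 points for Myh4, -2.565 for Myh2, over 1.5 times smaller, and -13.57 for Myh1. Without replicate 4 of both pMT groups they were 20.35, -3.665 and -15.66 points.

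The ratio of the faster chains to the others, log2 of (Myh1 + Myh4) over (Myh2 + Myh7) in TPM takes Myh1 and Myh4 together. It was 2.883 and 2.996 in Control and 2.366 and 2.38 in the surgery group. In the pMT group it was 2.725, 2.723, 2.729 and 2.796, although the Myh4 share of those libraries ran from 46.43% to 68.22%. In the pMT/VitD group it was 2.968, 3.109, 2.88 and 2.963, and in the VitD group 1.842, 2.41 and 2.576. The 8 libraries given pMT were all above the 5 operated libraries without it.

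**Figure D4:**
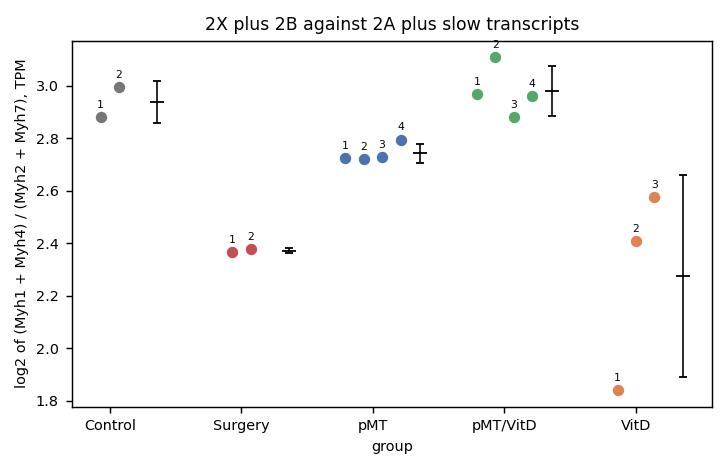
Log2 ratio of summed TPM of Myh1 and Myh4 to that of Myh2 and Myh7 (y axis) in every library (points) of each group (x axis), with group means and SD. The pMT group lies between 2.723 and 2.796 and the pMT/VitD group between 2.88 and 3.109, above the highest VitD library at 2.576.

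The ratio was 2.86 ± 0.143 (SD, n = 8) with pMT and 2.315 ± 0.277 (SD, n = 5) without, a difference of 0.55 on the log2 scale. The two-sided exact permutation test gave p = 0.00155, the smallest that 1287 arrangements allow, and an adjusted p of 0.0109 over 7 comparisons. Without VitD replicate 1 the difference was 0.43, and without replicate 4 of both pMT groups 0.54. Over the alternatives the adjusted p was 0.0109 to 0.0303, which follows the number of libraries left rather than the size of the difference. The pMT/VitD group lay above the pMT group without overlap, by 0.24 (exact permutation p = 0.0286, the smallest possible, adjusted p = 0.1). Surgery lay 0.57 below Control (exact permutation p = 0.333, the smallest possible), and all operated libraries together lay 0.29 below Control (exact permutation p = 0.191, adjusted p = 0.267).

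Members moved together to different degrees. Across the 15 libraries the SD of the log2 ratio of a pair was 0.21 for Myh1 and Myh2, against 1.04 for Myh1 and Myh4, 0.98 for Myh2 and Myh4, 0.69 for Myh1 and Myh7, 0.57 for Myh2 and Myh7 and 0.60 for Myh4 and Myh7. The TPM ratio of Myh1 to Myh2 thus stayed between 3.51 and 5.67, while that of Myh4 to Myh1 ran from 0.238 in VitD replicate 1 to 4.08 in pMT/VitD replicate 2. These are descriptions over libraries that share groups, and Myh1 and Myh2 also share close sequence. The ratio of Myh6 to Myh7 stayed between 0.0966 and 0.139.

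Among the other sarcomeric heavy chains, Myh3, the embryonic chain of developing and regenerating fibres, differed most between groups. It was 30.73 and 21.945 CPM in Control, 325.62 and 335 CPM in the surgery group, and 993.17, 343.33 and 113.12 CPM in the VitD group. The pMT group had 17.69, 57.19, 61.684 and 15.455 CPM and the pMT/VitD group 22.341, 16.867, 27.778 and 30.941 CPM, so no library given pMT reached an operated library without it. How many of all genes likewise separated these libraries was not counted, here or for Myh7b below. Its log2 fold change was -3.71 (SE 0.46, edgeR adjusted p = 0.000144) with pMT against without, and this call held in 25 of 25 settings. Against surgery it was -3.12 for pMT (adjusted p = 0.0301, called in 17 of 25 settings) and -3.75 for pMT/VitD (adjusted p = 0.00604, called in 22 of 25), and both calls were lost without either surgery library. For surgery against Control it was 3.65 (SE 0.87) and just missed the threshold (adjusted p = 0.0537). Myh3 and Myh8 together made up 0.21% to 3.79% of the TPM of the 6 chains, so they barely bear on the shares above.

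Of the 6 other sarcomeric heavy chains tested, 1 was higher and 2 were lower with pMT than without, where 23.3% of all genes were called. Myh7b, an ancient slow-type chain, was 4.9129 to 8.146 CPM without pMT and 8.6984 to 17.544 CPM with it (log2 fold change 0.60, adjusted p = 0.0243), a call lost without either surgery library, without VitD replicate 1 and with library size alone. Myh15, another slow-type chain, was lower (log2 fold change -3.04, adjusted p = 0.000829), but on only 0 to 266 counts per library. Myh8, the neonatal chain, did not pass (-0.28, adjusted p = 0.573), with 182.62 and 187.52 CPM in surgery, 197.27 and 199.79 CPM in Control and 56.404 to 308.13 CPM over all libraries. Myh6, the alpha chain of the heart, did not pass (-0.09, adjusted p = 0.726), nor did Myh13, the extraocular chain, at 0 to 36 counts (0.58, adjusted p = 0.418).

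Other genes of fast and slow fibres were taken as lists. All 13 fast fibre partners tested had a log2 fold change above 0 with pMT against without, with a median of 0.36 against 0.01 for all genes. Of them 1 was called, where 23.3% of all genes were called. That was Myoz1, a Z-disc protein of fast fibres, at 0.64 (adjusted p = 0.0156), which was lost without either surgery library and with scaling by library size alone. The most abundant members, the fast light chains Mylpf and Myl1 and the fast calcium pump Atp2a1, had values of 0.11, 0.27 and 0.52 and were not called. For surgery against Control all 13 had values below 0, with a median of -0.35 against -0.01 for all genes, and none was called. The surgery libraries enter both comparisons, on opposite sides, so opposite directions are not independent results. With library size alone the median with pMT against without was 0.10, against -0.23 for all genes. The medians of the 2 groups given pMT were not the same, but no gene of the list was called between them. Against surgery, 10 of 13 were above 0 for pMT alone (median 0.15) and 13 of 13 for pMT/VitD (median 0.52). For pMT/VitD against pMT, where 0% of all genes were called, 13 of 13 were above 0 (median 0.39). The summed level of the list was 126000, 118800, 111700 and 155000 CPM in pMT replicates 1 to 4. It was 140200 to 184200 CPM in pMT/VitD, 118000 to 118700 CPM in surgery and 93890 to 126300 CPM in VitD. The ranges of pMT and pMT/VitD overlapped.

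**Figure D5:**
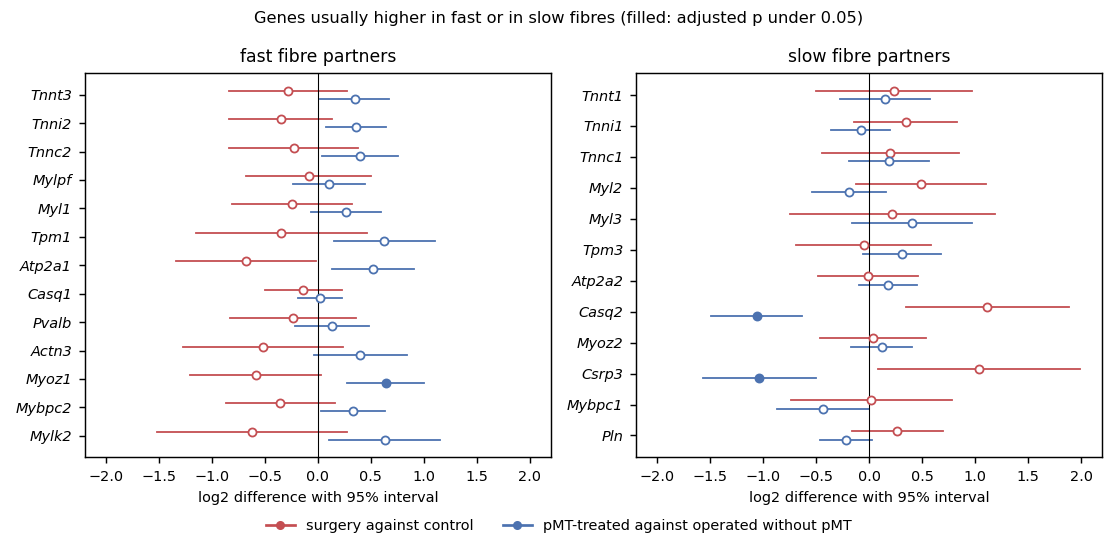
Log2 fold change (x axis) of each gene of the fast and slow fibre lists for surgery against Control and for pMT-treated against operated without pMT; filled points passed at an adjusted p of 0.05. The 13 fast fibre genes lie below 0 in the former and above 0 in the latter, with 1 of them called, Myoz1 at 0.64. The surgery libraries enter both comparisons, on opposite sides, so the directions are not independent.

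Of 12 slow fibre partners tested, 2 were lower with pMT than without and none was higher, in a comparison where 23.3% of all genes were called, with a median log2 fold change of 0.02. Casq2, the calsequestrin of heart and slow muscle, was at -1.06 (adjusted p = 0.00206), a call that held in 25 of 25 settings. Csrp3, a muscle LIM protein of the Z-disc, was at -1.04 (adjusted p = 0.00881). The most abundant members were Mybpc1, the slow myosin binding protein C, the slow light chain Myl3 and the slow troponin Tnnt1, and none of these was called. For surgery against Control 10 of 12 had values above 0 (median 0.23) and none was called.

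Of 29 fibre type regulators, 5 were higher and 2 lower with pMT than without, where 23.3% of all genes were called. Those with the smallest adjusted p were Vgll2, a cofactor of TEAD factors in muscle (0.48, adjusted p = 0.000487), Ppargc1a, a coactivator of mitochondrial biogenesis (0.36, adjusted p = 0.00508), Mafa (0.57, adjusted p = 0.00598) and Esrra, an oestrogen-related receptor (0.35, adjusted p = 0.00825). All 5 higher calls were lost when libraries were scaled by size alone. Mef2c and Mef2d, among the most abundant regulators, were not called. In the list of myosin folding and thick filament assembly, 1 of 12 genes was higher and 1 lower. Trim54, a ubiquitin ligase of the sarcomere, was at 0.78 (adjusted p = 0.000676) and the chaperone Hsp90aa1 at -0.37 (adjusted p = 0.0443, called in 11 of 25 settings), while Ttn, Myom2 and Hsp90ab1, the most abundant, were not called.

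Markers of other cell types moved in the same comparison. Of 5 fibroblast markers 3 were lower with pMT, Col1a1 at -1.43 (adjusted p = 0.000213), Col1a2 at -1.24 and Col3a1 at -1.12, and the summed level of the list was 1889 to 2998 CPM with pMT, 3768 to 7199 CPM without and 2562 to 2575 CPM in Control. All 5 macrophage markers were lower, from Csf1r at -0.82 to Adgre1 at -1.38 (adjusted p = 6.42e-05), with a summed level of 62.1 to 120.6 CPM against 168.1 to 190.1 CPM and 102.5 to 102.7 CPM in Control. Of 6 genes of muscle fibre identity 1 was higher, Des at 0.44 (adjusted p = 0.00765), lost without surgery replicate 2 and with library size alone, and the most abundant, Acta1 and Ckm, were not called. Of 5 endothelial markers Kdr was higher (0.48) and Pecam1 lower (-0.27), both lost without surgery replicate 1, and Cdh5 (-0.15) and Tek (-0.05) were not called. Among fibroblast markers the abundant Dcn was not called (-0.05). No adipocyte or Schwann cell marker was called, the most abundant including Fabp4 (-0.04), Adipoq (0.08) and Cidec (0.22) of the former and Mbp (-0.11) and S100b (0.14) of the latter. Of 4 lymphocyte markers tested Cd3d was lower (-2.40) on 0 to 35 counts and called in 12 of 24 settings, while Cd79a (-0.43), Cd79b (-0.96) and Cd3e (-1.90) were not called. The mitochondrial share was 11.1% to 22.6% with pMT against 10.7% to 13.0% without. What part these differences have in the values of the members was not tested.

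In surgery against Control the single call among all 12 lists was Adgre1, a macrophage surface receptor, at 1.22 (adjusted p = 0.0472, called in 14 of 25 settings). In pMT against surgery the calls among the lists were Myh3, Col1a1, Col1a2 and Adgre1, all lower. Col1a1 and Col1a2 were each called in 12 of 25 settings and Adgre1 in 21, and all 4 calls were lost without either surgery library. In pMT/VitD against surgery 3 fibroblast and 5 macrophage markers, Myh3 and Myh15 were lower, and Vgll2, Trim54 and Des were higher. Without either surgery library all of these calls but Adgre1 were lost. In the comparisons of vitamin D, in the interaction and in operated against Control none was called.

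The genes whose pattern over the 15 libraries was most like each member were found by the SD of the log2 ratio to it, divided by the SD of the member itself, over 3125 genes of sufficient level. For Myh4 they were Igfn1, an immunoglobulin-domain protein of the Z-disc (0.303), the long non-coding RNA LOC100910189 (0.323) and Tjap1 (0.343). Igfn1 was 723 to 733 CPM in Control, 515 to 520 CPM in surgery, 758 to 939 CPM in pMT, 649 to 920 CPM in pMT/VitD and 184 to 630 CPM in VitD. For Myh1 they were Mybpc1 (0.341), Sel1l3 (0.452) and Nid2 (0.491), and for Myh2 Fhl1 (0.394), Nid2 (0.403) and Nid1 (0.448). For Myh7 they were Xpo4 (0.478), Ldhb, the heart-type subunit of lactate dehydrogenase (0.503), and Lrrfip1 (0.618), a looser likeness. The 3 genes like Myh4 were higher with pMT than without (log2 fold changes 0.82, 0.93 and 0.75), which follows in part from how they were chosen.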

How the data were processed

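RNA of multifidus muscle was sequenced as paired ends in 15 libraries, grouped by the sample labels. Per the submitters' processing notes and the methods, the authors used Trimmomatic 0.38 for trimming, HISAT2 2.1.0 for alignment to rn6 (RefSeq genes), SAMtools 1.9 for sorting, StringTie 2.1.3b for quantification and edgeR 3.40.2 for their own tests. The authors deposited read counts per gene, not normalized. They also deposited TPM values, whose total is equal in all libraries, and 15 columns of FPKM values, left unused here. Handling of strand and of multiply aligned reads is not given in the sources used here.

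Counts were fitted with edgeR 4.0.16 (R 4.3.3, TMM factors, filterByExpr by group, robust quasi-likelihood F-test), all 15 libraries in 1 fit of group. Adjusted p-values are Benjamini-Hochberg over 17201 genes, called below 0.05. The surgery and VitD groups together are written "operated without pMT", and pMT and pMT/VitD together "pMT-treated". Contrasts are differences of group means. Shares and ratios of TPM were compared by two-sided exact permutation tests over samples (SciPy 1.17.1), adjusted over 28 shares and 7 ratios. Intervals are at 95%, and precision is limited by the number of libraries rather than depth for the members, whose counts were 81467 to 2055588. Upstream sequences came from RefSeq (GRCr8). The scripts were tested on simulated data.

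Named genes were the 4 members, every tested gene of the other sarcomeric heavy chains, the 3 most abundant genes of each other list with up to 4 called per comparison by smallest adjusted p, and the 3 genes most like each member. Some genes that this rule names are not reported here. The 12 lists were other sarcomeric heavy chains, slow and fast fibre partners, fibre type regulators, myosin folding and thick filament assembly, muscle fibre identity, and markers of fibroblasts, macrophages, endothelium, adipocytes, Schwann cells and lymphocytes. Myh16 and Myl6b were not analysed here. The members and lists were chosen with earlier results of these data known. Samples with the same replicate number did not visibly deviate together, so the reported fit does not pair them. With so few libraries a group this cannot exclude a pairing. Alternatives were RLE factors, library size alone, DESeq2 1.42.0, limma-voom (limma 3.58.1) with sample quality weights, other filters, a removed gene length trend, only the groups compared, the replicate number as a block, leaving out each library, and leaving out replicate 4 of both pMT groups.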

Additional observations from a re-analysis of the deposited data

Results flagged for a closer look

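In the pMT group, replicate 4 stood apart from the other 3 libraries in 4 measures, by the size of its gap relative to the range of the group. Its share of Myh2 in the adult pool was 5.476%, against 8.695% to 8.77% in replicates 1 to 3. Its share of Myh7 was 7.108%, against 4.386% to 4.439%. Its log2 ratio of Myh1 and Myh4 to Myh2 and Myh7 was 2.796, against 2.723 to 2.729. Its level of Myh6, the alpha chain of the heart, was 366.5 CPM, against 196.9 to 225.0 CPM. Of 24 sets of 4 samples looked at in this way, 4 were picked out, where chance alone picks about 1 in 20, or 1.2. All 4 were picked out by pMT replicate 4, and its shares and ratio come from the same TPM values. The sets are therefore not independent, and the count cannot measure how far this library exceeds chance. This library resembled pMT/VitD replicates 1 and 2 in its deviations from the group mean (correlations across genes of 0.431 and 0.313) and had a length trend of -0.322, against 0.018 to 0.453 in the other pMT libraries. The cause was not tested, nor whether a label is wrong.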

How the results depend on the processing

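Over the alternatives other than leaving out 1 library, 430 of the values kept their direction and side of the threshold, 26 changed sign, 18 came to pass and 1 no longer passed. On leaving out 1 library those counts were 1026, 36, 1 and 2. Of the changes of sign none was in a called value, and the cause was not tested for any change.

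The log2 fold change of Myh1 for surgery against Control turned to 0.01309 with RLE factors and with DESeq2, 0.2604 with library size alone, 0.01948 with the length trend removed, 0.0212 with only those groups and 0.02252 without replicate 4 of both pMT groups. For pMT against surgery Myh2 turned to 0.07268 with limma-voom and 0.07451 without replicate 4 of both pMT groups. Myh4 for VitD against surgery turned to 0.003937 with limma-voom. Myh7 for pMT/VitD against surgery turned to 0.04915 with limma-voom and 0.0928 with the length trend removed, and against pMT to 0.1817, 0.125 and, without replicate 4 of both pMT groups, 0.1338. With library size alone Myh4 for pMT/VitD against pMT was -0.09155, Myh1 for operated against Control 0.02495, Myh7 in the interaction -0.1245 and Myh7 for pMT-treated against operated without pMT -0.2466. The last was also -0.03315 with limma-voom, -0.008531 with no filter, -0.002635 with at least 10 counts in every library and -0.04449 without replicate 4 of both pMT groups. Without replicate 4 of both pMT groups the difference in share of Myh7 between pMT/VitD and pMT was 0.8157 points and that of Myh1 between operated and Control 1.306 points.

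With only surgery and Control fitted, Myh2 (0.2239), Myh4 (-0.5944) and Myh7 (0.3548) were called. The share of all genes called in that fit is not given here, and over all settings it was 8 to 5289 genes. limma-voom with sample weights called Myh4 for surgery against Control (-0.6213) and pMT against surgery (0.6865), Myh1, Myh2 and Myh4 for pMT/VitD against surgery (-0.9094, -0.735 and 0.9132), and Myh1 and Myh2 for pMT/VitD against pMT (-0.8866 and -0.8077), for pMT-treated against operated without pMT (-0.4978 and -0.3386) and in the interaction (-0.9501 and -0.8225). Of 17201 genes it called 2473 higher and 2429 lower for surgery against Control and 3121 and 3336 for pMT against surgery. For pMT/VitD it called 3284 and 3493 against surgery and 3113 and 3482 against pMT. It called 4321 and 4484 for pMT-treated against operated without pMT and 2676 and 2717 in the interaction. For any difference among the groups its adjusted p was 0.006096, 0.001796 and 0.0005624 for Myh1, Myh2 and Myh4, and that of DESeq2 was 0.02408 for Myh4. Over all settings 1080 to 11458 genes were called for any difference. The share of all genes called by either tool there is not given here, so these values have no background beside them.

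Leaving out 1 library gave log2 fold changes of -0.03874 to 0.02728 for Myh1, surgery against Control. For pMT against surgery they were -0.2687 to 0.08856 for Myh2 and -0.148 to 0.09407 for Myh7. For VitD against surgery they were -0.007784 to 0.1908 for Myh1, -0.09938 to 0.2891 for Myh2, -0.57 to 0.1634 for Myh4 and -0.2002 to 0.03385 for Myh7. For pMT/VitD against surgery they were 0.749 to 0.9262 for Myh4, called without VitD replicate 1, with 122 to 2199 genes called over these fits. For Myh7 they were -0.172 to 0.00598. For pMT/VitD against pMT they were -0.04321 to 0.2034 for Myh4 and -0.1617 to 0.08064 for Myh7. For pMT-treated against operated without pMT they were 0.6921 to 1.059 for Myh4 and -0.06435 to 0.06359 for Myh7, and in the interaction -0.07103 to 0.662 for Myh4 and -0.07423 to 0.1813 for Myh7. Differences in share for VitD against surgery were -1.902 to 9.72 points for Myh1, -1.026 to 3.173 for Myh2 and -12.36 to 2.985 for Myh4, and the ratio -0.2469 to 0.1201. Those for operated against Control were -3.088 to 0.7074 points for Myh1 and -3.422 to 1.325 for Myh4, and that of Myh7 for pMT/VitD against pMT -0.426 to 0.6305.

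With the replicate number as a block, Myh4 for pMT-treated against operated without pMT was 0.8551 and no longer passed (adjusted p = 0.06285), Myh7 was -0.04317 and Myh1 for VitD against surgery -0.02459. The correlation of deviations of same-numbered libraries was -0.499 to 0.169, against -0.287 to 0.431 for libraries with different numbers. These values show no pairing by number, but with so few libraries a group they cannot exclude it. The block moved the genes called for pMT-treated against operated without pMT from 4004 to 2415, for surgery against Control from 266 to 106, for pMT against surgery from 334 to 78, for pMT/VitD against surgery from 1279 to 350, for operated against Control from 4 to 2 and for any difference from 2035 to 1080.

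Over all settings the genes called ran from 8 to 5289 for surgery against Control, 27 to 6457 for pMT against surgery, 0 to 419 for VitD against surgery, 122 to 6777 for pMT/VitD against surgery, 0 to 6595 for pMT/VitD against pMT, 2007 to 8805 for pMT-treated against operated without pMT, 1 to 2321 for operated against Control, 0 to 5393 for the interaction and 1080 to 11458 for any difference. Without replicate 4 of both pMT groups pMT/VitD against pMT gave 3136 and the interaction 325. Library size alone gave 969 higher and 28 lower for surgery against Control (215 and 51 in the reported fit), 23 and 314 for pMT against surgery (68 and 266), and 98 and 3150 for pMT/VitD against surgery (413 and 866). With the length trend removed the splits were 370 and 172 for surgery against Control and 882 and 927 for pMT/VitD against surgery.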

Other observations

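Mybph, myosin binding protein H of the thick filament, was looked at after its values were seen. It was 848.97 CPM in pMT replicate 4 and 1013 and 1088.1 CPM in pMT/VitD replicates 1 and 2. In the other 12 libraries it was 34.572 to 240.68 CPM, with 41.094 and 40.774 CPM in Control and 112.25 and 115.55 CPM in the surgery group. The 3 libraries with high Mybph were those in which Myh7 passed Myh2 in TPM and in which Myh1 was lowest, at 6718.9 to 7463.7 CPM. The same 3 libraries had the most negative length trends, -0.322, -0.394 and -0.388, against -0.165 to 0.453 in the others, and the part of this in the values was not tested. No test was made of this pattern, since the libraries were picked by their values.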
